A study of Rattus norvegicus with 6 samples.

Results

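Genes that mark cardiac fibroblasts or encode small leucine-rich proteoglycans, 10 in all, were followed in cultures of neonatal rat heart cells under bacterial lipopolysaccharide (LPS), with and without knockdown of Mettl3, the methyltransferase that writes N6-methyladenosine on messenger RNA. The 10 genes were taken by symbol from a table of 32623 genes, and each symbol had 1 row. They are 5 fibroblast markers (Pdgfra, Ddr2, Thy1, Tcf21 and Islr) and 5 proteoglycan genes (Dcn, Lum, Bgn, Ogn and Fmod). The libraries come from primary myocardial cells of the ventricles of Sprague-Dawley rats at postnatal day 1 to 3. In the siNC group (3 libraries) the cells received a control small interfering RNA for 24 h and then LPS for 6 h. In the siMettl3 group (3 libraries) they received one against Mettl3 for the same 24 h and the same 6 h of LPS. Every library therefore carries LPS, and no value below is a response to it. The cells were 1 isolate pooled from several rats, so p-values measure only the spread between these libraries, which may be technical.

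Fibroblasts are the main matrix-producing cells of the heart and accompany myocytes in primary cultures of neonatal ventricle. Small leucine-rich proteoglycans are secreted proteins with a core of leucine-rich repeats that bind collagen fibrils and govern how they assemble; decorin and biglycan carry chondroitin or dermatan sulfate chains, lumican and fibromodulin keratan sulfate. Biglycan released from the matrix is also known as a ligand of Toll-like receptors, the receptor family that detects LPS.

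The cultures held RNA of both kinds of cell. The myocyte genes Tnnt2 and Myh6 measured 3662 ± 221 and 2303 ± 166 FPKM (sequenced fragments normalised for transcript length and sequencing depth) in siNC libraries (SD, n = 3), against 4.90 ± 0.505 for Pdgfra and 22.4 ± 1.00 for Thy1. Other messages known from fibroblasts reached 471 ± 15.9 FPKM for Bgn and 1196 ± 17.6 FPKM for Col1a1 in siNC. Levels of single genes therefore give no shares of cells. Thy1 is also known from cells of the T lineage and from neurons. Of the 5 T cell genes found, Cd3d and Cd3e had a count of 0 in all 6 libraries, which allows up to 3 counts in each for counting error. Cd3g and Cd2 had at most 8 counts, and Lck had 103 to 225 in every library. Of the neuronal genes, Tubb3 measured 7.44 ± 0.790 FPKM in siNC and 6.61 ± 0.935 in siMettl3, Stmn2 0.839 ± 0.147 and 0.324 ± 0.153, and Snap25 and Elavl3 had at most 24 counts. The part of such cells in Thy1 was not tested. The total count per library was 71202469 to 76668751. Mettl3 measured 18.2, 17.2 and 15.3 FPKM in siNC and 10.3, 10.6 and 9.90 FPKM in siMettl3, so the targeted gene was lower in every library labelled as knockdown (log2 fold change -0.67, SE 0.0741, limma adjusted p = 0.00661).

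The rat promoters of 6 of the 10 genes were matched by symbol in the set of RefSeq promoter windows used here (build GRCr8). Those of Ddr2, Thy1, Dcn and Bgn had no match in that set. Shown are the 250 bases upstream of the start, 5′ to 3′ on the gene's strand, of Islr and Lum, which were lower in the knockdown, and of Fmod, which did not pass. Capitals mark matches to CANNTG, the E-box that basic helix-loop-helix factors such as Tcf21 recognise. The windows are chr8:67469259-67469508 on the minus strand, chr7:34245456-34245705 on the plus strand and chr13:48045317-48045566 on the plus strand.
Islr: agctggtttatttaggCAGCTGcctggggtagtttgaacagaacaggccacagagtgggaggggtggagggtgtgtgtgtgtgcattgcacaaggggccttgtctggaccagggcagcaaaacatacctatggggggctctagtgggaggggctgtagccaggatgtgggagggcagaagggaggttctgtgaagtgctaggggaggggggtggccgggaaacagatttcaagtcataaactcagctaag
Lum: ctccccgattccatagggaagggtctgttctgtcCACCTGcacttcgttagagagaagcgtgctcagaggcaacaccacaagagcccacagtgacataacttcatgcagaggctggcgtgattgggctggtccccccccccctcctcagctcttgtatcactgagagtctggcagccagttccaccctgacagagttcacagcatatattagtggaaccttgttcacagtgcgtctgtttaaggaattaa
Fmod: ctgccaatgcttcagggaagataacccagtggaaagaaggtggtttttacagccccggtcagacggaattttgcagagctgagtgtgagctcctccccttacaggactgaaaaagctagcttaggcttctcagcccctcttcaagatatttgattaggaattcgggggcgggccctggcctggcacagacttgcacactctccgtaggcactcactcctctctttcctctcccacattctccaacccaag
Islr and Lum held 1 E-box each and Fmod 0, where 65.5% of the 33469 RefSeq promoter windows of this length held at least 1 (the motif reads the same on both strands). The windows of Pdgfra, Tcf21 and Ogn held 1, 0 and 3. TATAAA, searched on both strands and present in 12.9% of all windows, was found in Ogn only. Its 2 matches there, 1 on each strand, overlap at 1 site. CATTCC, the MCAT element of TEAD factors, present in 12.1%, was likewise found in Ogn only, with 1 match. These matches describe the letters and were not tied to binding.

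Of the 10 genes 3 fell past the threshold in siMettl3 cells and 0 rose: Bgn, Islr and Lum. The test was limma on log2(FPKM + 1) across 13105 genes with a Benjamini-Hochberg threshold of 0.05, and it called 4.4% of all tested genes lower and 6.53% higher. Ogn, with a count of 0 in 1 library of each group, gives no usable direction. The fold changes of the other 9 lay below 0, as did 36.3% of all tested genes, and their median was -0.31 on the log2 scale against 0.07 for all tested genes. That share of 36.3% depends on scaling, since the median over all tested genes was 0.0025 by edgeR and 0.0057 after median-ratio scaling. In 7 of these 9 each siMettl3 library lay below each siNC library, which held for 11.5% of tested genes. edgeR on the counts of the same genes called 5 lower, adding Pdgfra and Thy1, and 0 higher, where it called 6.59% of tested genes lower and 3.39% higher. DESeq2 on the same counts called 8 lower, all but Ogn and Fmod, and 10.6% of tested genes. In a bulk library, fewer fibroblasts and less of these messages per fibroblast cannot be told apart.

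**Figure D1:**
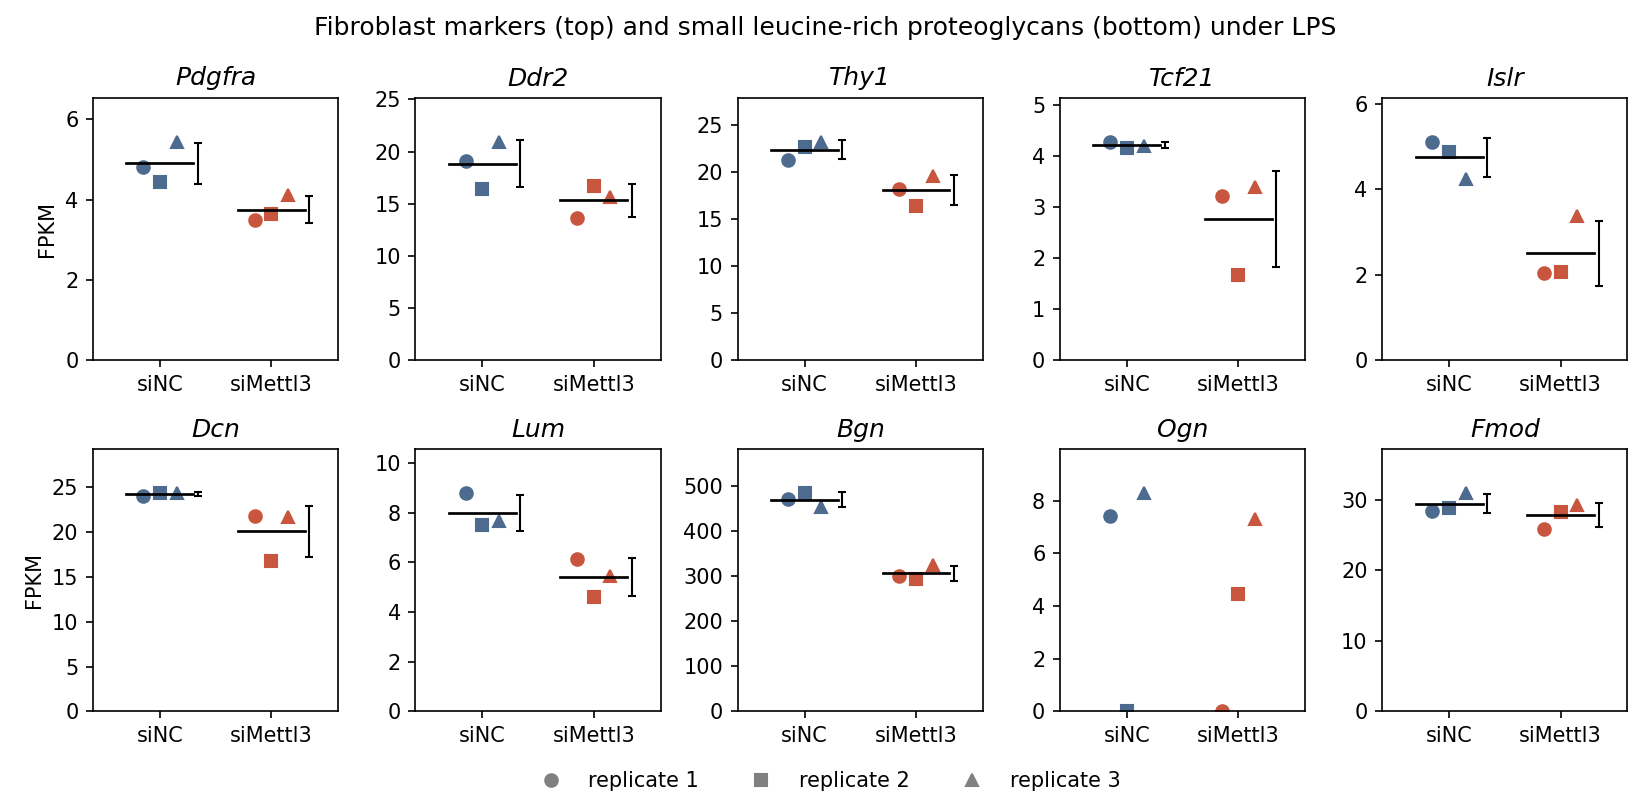
FPKM of the 10 genes in each library (y axis from 0; points are libraries, with shape by replicate number; the line is the mean of 3 libraries and the bar beside it the SD, neither drawn for Ogn). All siMettl3 points lie below all siNC points in 7 panels and overlap them in those of Ddr2, Ogn and Fmod.

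Among the fibroblast markers, Islr, a secreted or membrane-anchored immunoglobulin and leucine-rich repeat protein (also called meflin) of stromal cells, had the largest fold change. The table places it (ENSRNOG00000048924) at chr8:62946732-62948720 on the minus strand. It measured 5.11, 4.87 and 4.24 FPKM in siNC replicates 1 to 3 and 2.05, 2.07 and 3.37 FPKM in siMettl3 replicates 1 to 3, on 311 to 802 counts. The groups did not overlap, and siMettl3 replicate 3 stood above the other knockdown libraries. The mean fell to 52.7% of control (log2 fold change -0.73, 95% interval -1.10 to -0.37, SE 0.155, limma adjusted p = 0.0331; edgeR -1.0, adjusted p = 0.0310). With 1 library left out limma kept the call in 1 of 6 fits, the one without siMettl3 replicate 3 (adjusted p = 0.0169); in the others it was 0.0535 to 0.112.

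Tcf21, a transcription factor of the epicardium and of cardiac fibroblasts, measured 4.28, 4.16 and 4.20 FPKM in siNC and 3.22, 1.68 and 3.40 FPKM in siMettl3. The control libraries were nearly equal and all above the knockdown libraries, of which replicate 2 was the lowest, with 158 counts. Its log2 fold change of -0.50 (95% interval -0.95 to -0.06) did not pass by limma (adjusted p = 0.123) or edgeR (adjusted p = 0.143). Without siMettl3 replicate 2 it was -0.28 (limma adjusted p = 0.105).

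Pdgfra, the receptor tyrosine kinase for platelet-derived growth factors that marks most resident cardiac fibroblasts, measured 4.83, 4.44 and 5.44 FPKM in siNC and 3.49, 3.65 and 4.12 FPKM in siMettl3. Each knockdown library was below each control, the nearest pair 0.319 FPKM apart. The log2 fold change was -0.31 by limma (95% interval -0.53 to -0.09, adjusted p = 0.0743) and -0.46 by edgeR (adjusted p = 0.0341). Thy1, a glycolipid-anchored surface glycoprotein, measured 21.3, 22.7 and 23.3 FPKM in siNC and 18.2, 16.4 and 19.7 FPKM in siMettl3, again without overlap. It was -0.30 by limma (95% interval -0.48 to -0.12, adjusted p = 0.0517) and -0.38 by edgeR (adjusted p = 0.0368). limma itself called both after quantile normalization (adjusted p = 0.0422 for Pdgfra and 0.0438 for Thy1), and Thy1 also after median-ratio scaling (0.0371) and with a filter at a mean of 5 FPKM (0.0436). Ddr2, a receptor tyrosine kinase activated by fibrillar collagen, measured 19.1, 16.5 and 20.9 FPKM in siNC and 13.6, 16.7 and 15.6 FPKM in siMettl3. Its groups overlapped through replicate 2 of each, and it passed neither test (-0.28, limma adjusted p = 0.131; edgeR adjusted p = 0.0734).

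The proteoglycan genes differed widely in level. Bgn (biglycan) supplied 87.8% to 88.9% of the summed FPKM of the 4 genes other than Ogn in siNC and 84.8% to 85.6% in siMettl3, Fmod 5.29% to 6.00% and 7.30% to 8.22%. Bgn (ENSRNOG00000055962) lies at chrX:157319046-157331204 on the minus strand of the table's unnamed build. It measured 472, 486 and 454 FPKM in siNC and 301, 295 and 326 FPKM in siMettl3, on 54722 to 90636 counts. The groups lay 128 FPKM apart at their nearest libraries. It fell to 65.3% of control (log2 fold change -0.61, 95% interval -0.77 to -0.46, SE 0.0638, limma adjusted p = 0.00571; edgeR -0.69, adjusted p = 0.00257). Bgn was the one member called in each of the 12 fits that left out 1 library, 6 by limma and 6 by edgeR, with adjusted p of at most 0.0368.

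Lum (lumican, ENSRNOG00000004610, chr7:38819771-38826862 on the plus strand) measured 8.80, 7.51 and 7.65 FPKM in siNC and 6.15, 4.62 and 5.44 FPKM in siMettl3, without overlap. It fell to 67.7% of control (log2 fold change -0.49, 95% interval -0.75 to -0.24, SE 0.107, limma adjusted p = 0.0349; edgeR -0.64, adjusted p = 0.0271). Leaving out any 1 library ended the limma call, with adjusted p of 0.0609 to 0.115. Dcn (decorin), which lies 37448 bases upstream of Lum on chromosome 7 in the deposited coordinates, measured 23.9, 24.3 and 24.3 FPKM in siNC and 21.8, 16.8 and 21.6 FPKM in siMettl3. The groups did not overlap, with siMettl3 replicate 2 apart from the other knockdown libraries. Its fold change of -0.27 (95% interval -0.51 to -0.03) did not pass by limma (adjusted p = 0.126) or edgeR (adjusted p = 0.0887), and it was -0.15 without that library. Kera (keratocan), the next gene of this cluster, had a count of 0 in all 6 libraries, and Epyc (epiphycan) was under 1 FPKM in both groups (0.724 ± 0.0988 and 0.525 ± 0.134).

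Fmod (fibromodulin) measured 28.4, 28.9 and 31.0 FPKM in siNC and 25.9, 28.3 and 29.3 FPKM in siMettl3, with overlapping groups. Its log2 fold change was -0.08 (95% interval -0.23 to 0.07, limma adjusted p = 0.434; edgeR -0.16, adjusted p = 0.175), so the interval excludes a fall as large as that of Bgn.

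Ogn (osteoglycin, or mimecan) cannot be compared. It had 877, 0 and 911 counts in siNC replicates 1 to 3 and 0, 511 and 816 in siMettl3 replicates 1 to 3. Such a gap within a group, from 0 to 100 counts or more, was found in 87 tested genes. Aspn, on the same strand 28431 bases away, had counts in every library. Cenpp overlaps Ogn on the opposite strand, and whether counting used strand is not given in the sources used here. The fitted value (limma adjusted p = 0.886) carried a standard error of 1.07 and gives no direction. In the libraries with counts Ogn measured 7.42 and 8.30 FPKM in siNC and 4.45 and 7.31 FPKM in siMettl3.

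**Figure D2:**
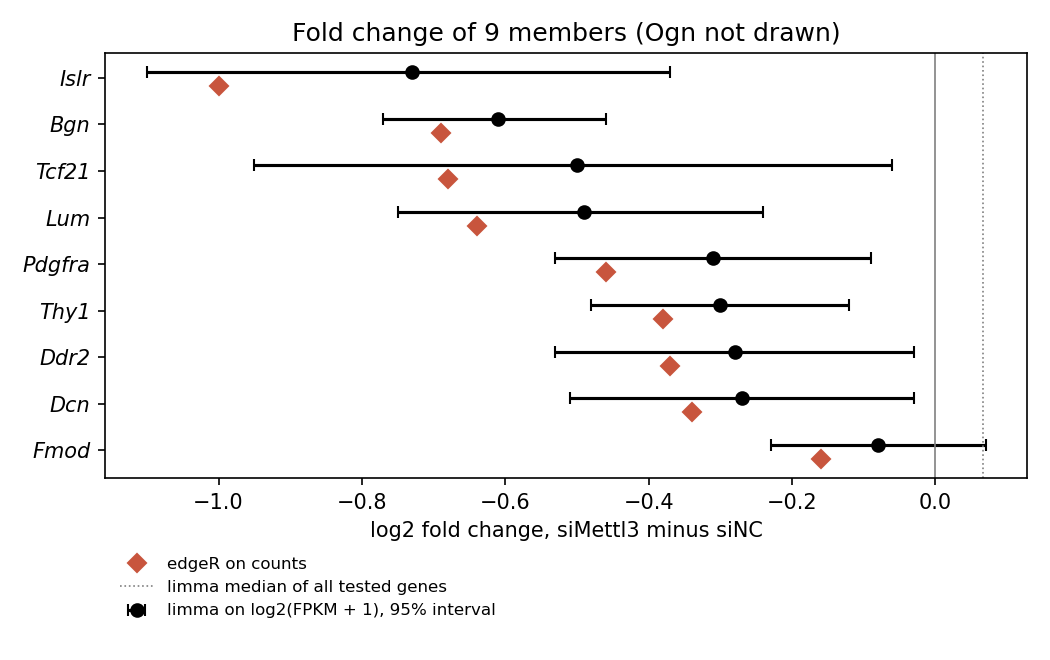
Log2 fold change (x axis, siMettl3 minus siNC) of 9 genes by limma with its 95% interval (circles and bars) and by edgeR on counts (diamonds); the dotted line is the limma median of all tested genes, 0.07. Islr, Bgn, Tcf21 and Lum lie at -0.49 or lower by limma, and the interval of Fmod spans 0.

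Ratios between the proteoglycan genes within a library do not depend on scaling between libraries. The log2 ratio of Bgn to Fmod was 4.05, 4.07 and 3.87 in siNC and 3.54, 3.38 and 3.48 in siMettl3, a difference of -0.53, and the groups did not overlap. The ratio of Fmod to Lum was 1.69, 1.94 and 2.02 in siNC and 2.08, 2.61 and 2.43 in siMettl3, a difference of 0.49 without overlap. The ratio of Bgn to Lum was 5.75, 6.02 and 5.89 against 5.62, 5.99 and 5.90, a difference of -0.05, with the groups interleaved. Bgn to Dcn (-0.34) and Dcn to Lum (0.29) also separated the groups, whereas Fmod to Dcn (0.20) did not. For the 6 pairs the 2-sided exact permutation p was 0.1 in the 4 that separated, the smallest that 3 against 3 libraries allow, and 0.7 and 0.2 for Bgn to Lum and Fmod to Dcn. Adjusted over the 6 pairs the smallest was 0.15. No pair could pass a threshold of 0.05 with groups of 3, so this test cannot decide whether the ratios differ.

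**Figure D3:**
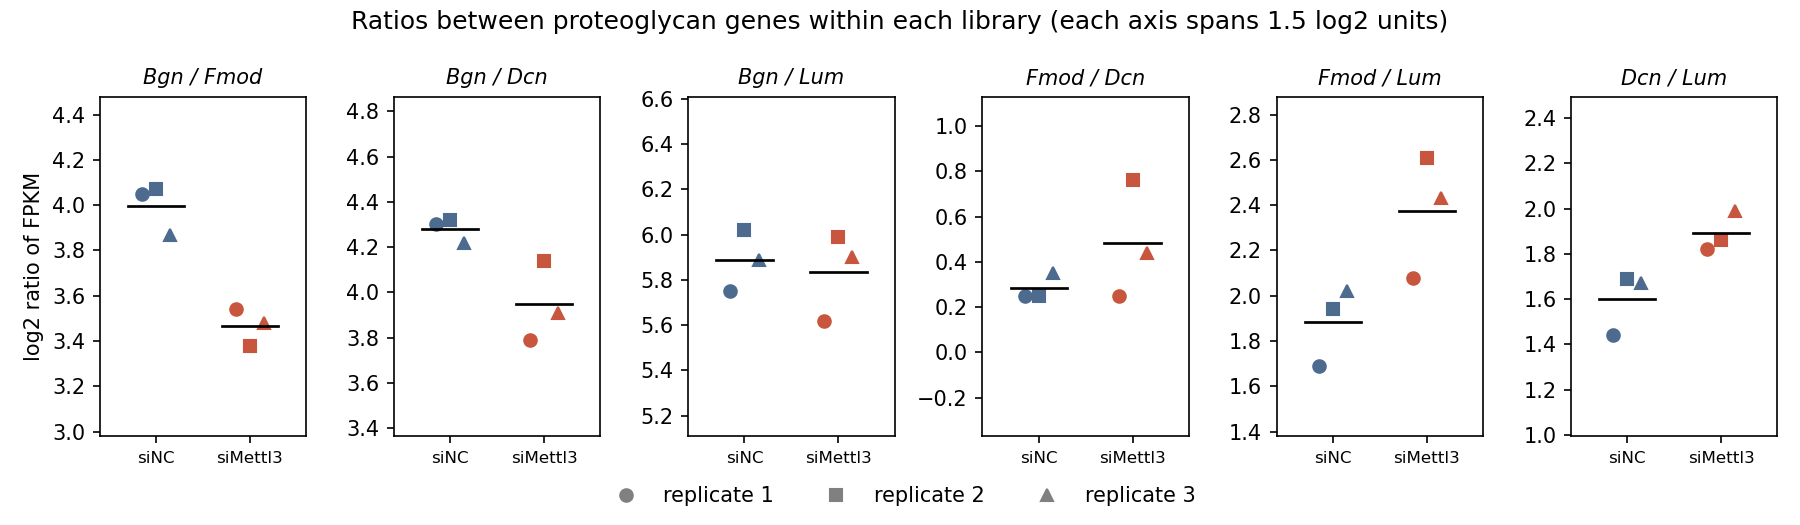
Log2 ratio of FPKM between pairs of proteoglycan genes (y axis, each spanning the same width in log2 units; points are libraries, lines the mean of 3). Bgn to Fmod lies at 3.87 to 4.07 in siNC and 3.38 to 3.54 in siMettl3, while the groups of Bgn to Lum overlap.

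Relatives of these genes were mostly too low to test. Of 13 other small leucine-rich proteoglycans 11 were found by symbol and 2 tested, and 0 were called by limma or edgeR. Prelp measured 11.9 ± 0.996 and 11.1 ± 0.633 FPKM and Tsku 11.1 ± 0.800 and 12.1 ± 0.357 FPKM (limma adjusted p = 0.50 and 0.291, unadjusted p = 0.325 and 0.137).

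Among other genes known from fibroblasts the calls were likewise falls. Of 20 listed, 19 were found and 17 tested, and 7 fell and 0 rose by limma, with 15 fold changes below 0 and a median of -0.23. Cd248 (0.15) and Dpt (0.09) lay above 0 and were not called. Pi16 and Fap were under the filter and not tested. Pi16 was higher in siMettl3 (0.579 ± 0.0921 to 1.12 ± 0.109 FPKM) and Fap lower (1.01 ± 0.227 to 0.539 ± 0.125 FPKM), both without overlap. The matrix glycoprotein Fbln2 fell by 1.10, collagen chain Col3a1 by 0.84, Col1a1 by 0.67 and periostin (Postn, a matricellular protein) by 0.60 on the log2 scale, and these 4 kept their calls in each limma fit with 1 library left out. By edgeR 8 fell and 0 rose. The fibrillar collagens, the fibrils to which these proteoglycans bind, had 8 tested genes, of which 5 fell and 0 rose: Col5a2 (-0.68), Col11a1 (-0.52) and Col5a3 (-0.22) beside Col1a1 and Col3a1. With 1 library left out limma kept Col5a2 in 6 of 6 fits, Col11a1 in 2 (without siNC replicate 2 or 3) and Col5a3 in 0.

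Set against Col1a1 in the same library, a choice made after seeing the data, Bgn did not separate the groups. Its log2 ratio to Col1a1 was -1.33, -1.28 and -1.42 in siNC and -1.26, -1.40 and -1.22 in siMettl3, and the groups overlapped, as they did for Lum, Islr and Tcf21. The ratio of Fmod to Col1a1 was -5.38, -5.36 and -5.29 in siNC and -4.79, -4.78 and -4.69 in siMettl3, without overlap, and those of Dcn, Thy1, Ddr2 and Pdgfra also lay higher in each siMettl3 library. That made 5 of 9 members, where 88.6% of tested genes did the same.

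The enzymes that build the sugar chains of decorin and biglycan moved in both directions. Of 20 tested genes of chondroitin and dermatan sulfate synthesis 4 fell and 1 rose, with a median of -0.02. The chain polymerase Chsy3 (6.26 ± 0.292 to 4.35 ± 0.164 FPKM, -0.44), the dermatan sulfate epimerase Dse (-0.34), the sulfotransferase Chst11 (-0.36) and the chain-initiating Csgalnact1 (-0.30) fell, while the related polymerase Chsy1 rose (32.0 ± 0.460 to 42.5 ± 3.66 FPKM, 0.39). edgeR also called 4 lower and 1 higher. Of these 5, Chst11 and Csgalnact1 were lost in each of the 6 limma fits with 1 library left out, Dse in 5, and Chsy3 and Chsy1 in 3 each (without siNC replicate 1, siNC replicate 2 or siMettl3 replicate 1). Of 7 tested keratan sulfate genes 2 rose, B3gnt7 (0.54) and B4galt1 (0.21), and 0 fell; edgeR called 1 of them, since B4galt1 had an edgeR adjusted p of 0.136. B4galt1 was lost in each limma fit with 1 library left out, and B3gnt7 without siNC replicate 1 or siMettl3 replicate 1.

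Among the platelet-derived growth factor genes and the relatives of the receptor genes, 6 were tested, with 3 fold changes below 0. By limma 1, the ligand Pdgfc, fell (8.77 ± 0.411 to 5.84 ± 0.319 FPKM, -0.51). Its limma call was lost without siMettl3 replicate 1 (adjusted p = 0.0528). edgeR called 2 lower and 0 higher, adding Pdgfa (-0.38, edgeR adjusted p = 0.0330). By limma Pdgfa was at -0.29 (adjusted p = 0.0578) and Pdgfb at 0.41 (adjusted p = 0.106). Of 11 tested genes that act in the processing of collagens or proteoglycans, the gelatinase Mmp2 (142 ± 0.579 to 92.7 ± 6.84 FPKM, -0.62) and the membrane protease Mmp14 (-0.27) fell and the procollagen protease Adamts3 (0.50) rose. edgeR called 3 lower and 1 higher, adding Tll1 (-0.49, edgeR adjusted p = 0.0329), which did not pass by limma (-0.34, adjusted p = 0.0655). Mmp2 kept its call in each limma fit with 1 library left out, Mmp14 in 0 of 6 and Adamts3 in 1.

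**Figure D4:**
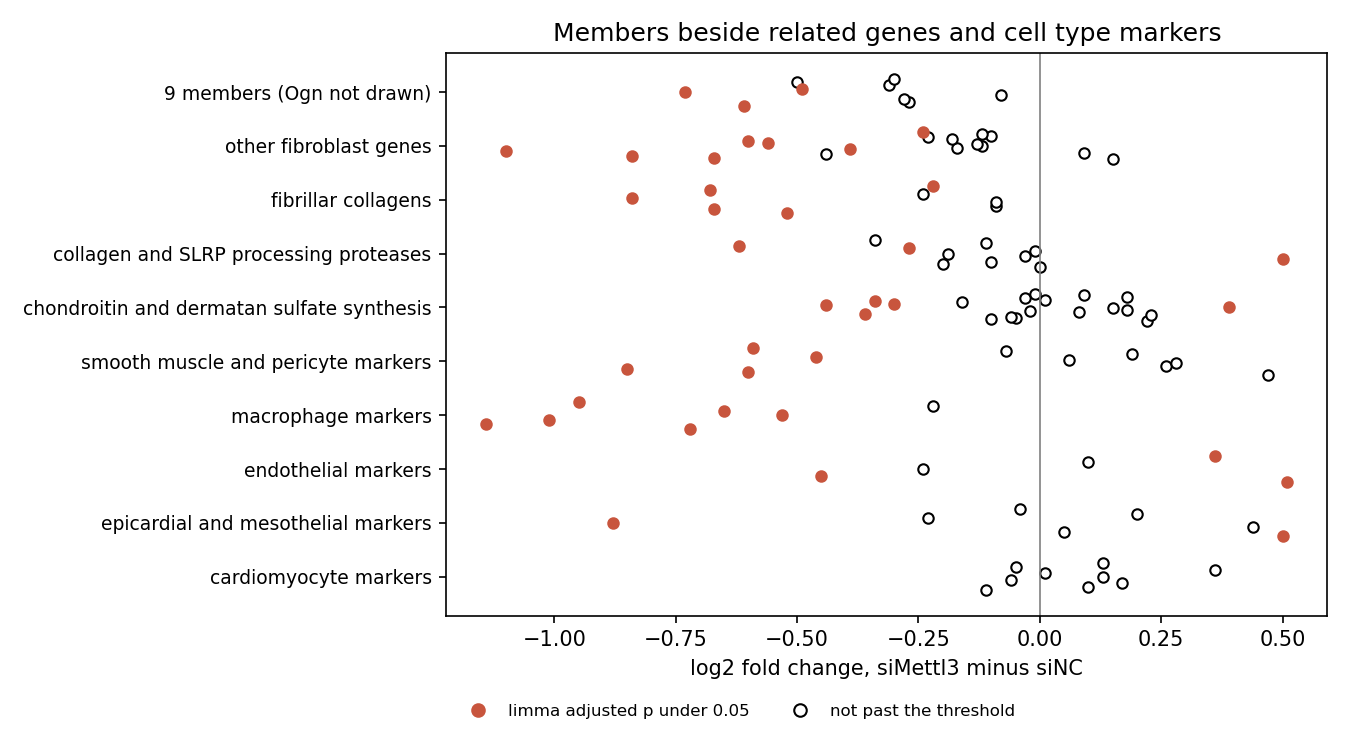
Log2 fold change by limma (x axis, siMettl3 minus siNC) of the tested genes of each list (points; filled where the adjusted p is under 0.05). The members and the matrix lists lie mostly below 0, the macrophage markers all do, and the cardiomyocyte markers lie on both sides of 0 with 0 calls.

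Genes listed as markers of other cells moved with these genes in part. Of 7 tested macrophage markers 6 fell and 0 rose (C1qa -1.14, C1qb -1.01, Lyz2 -0.95 and Cd14 -0.53 among them), and the summed level of the 12 was 79.5 to 97.4 FPKM in siNC and 41.2 to 53.9 in siMettl3. Of 10 genes listed as smooth muscle and pericyte markers 4 fell and 0 rose (Cnn1 -0.85, Acta2 -0.60, Tagln -0.59 and Myh11 -0.46), and 5 fold changes lay below 0. Summed levels were 3861 to 4363 FPKM in siNC and 2658 to 2867 FPKM in siMettl3, mostly Acta2 and Tagln. The pericyte genes Rgs5 (-0.07), Cspg4 (0.26), Kcnj8 (0.28) and Abcc9 (0.47) did not pass by limma (adjusted p = 0.837, 0.145, 0.0609 and 0.0719) or edgeR. DESeq2 called Abcc9 higher (adjusted p = 0.0181). Which cells carried the messages of this list was not tested. Of 9 cardiomyocyte markers 0 were called by limma or edgeR, and their sum of 7909 to 8384 and 8240 to 9052 FPKM overlapped between groups. Of 5 tested endothelial markers Cdh5 (0.51) and Tek (0.36) rose and Egfl7 (-0.45) fell, with sums of 18.8 to 20.6 and 20.3 to 21.2 FPKM. Of 7 tested epicardial and mesothelial markers Msln (-0.88) fell and Aldh1a1 (0.50) rose, with sums of 29.7 to 30.3 and 29.9 to 35.6 FPKM. Msln averaged 1.70 FPKM in siNC and 0.470 in siMettl3, Aldh1a1 0.829 and 1.59, and C1qb 2.40 and 0.688. Each passed the filter at a mean of 1 FPKM only through the group where it was higher. Wt1 (1.26 and 0.641 FPKM, without overlap) was under that filter and not tested. With 1 library left out limma kept C1qb, Cd14, Cnn1 and Msln in 6 of 6 fits, C1qa, Lyz2 and Acta2 in 4 (lost without siNC replicate 1 or siMettl3 replicate 1), Myh11 in 3, Cdh5 in 2, Tagln in 1 and Tek, Egfl7 and Aldh1a1 in 0. The T cell list (1 tested gene) and the Schwann and neuronal list (2 tested) had 0 calls by limma or edgeR. The part of other cells in the members' lower levels was not tested.

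Gene length moved with single libraries and, for long genes, with the group. Medians below are log2 deviations from each gene's mean over libraries, for replicates 1 to 3. Genes over 3000 bases of effective length lay at -0.053, -0.114 and -0.003 in siNC. In siMettl3 they lay at 0.032, 0.129 and 0.021, without overlap, so length and knockdown are confounded there. Genes of middle length lay at -0.01, -0.011 and -0.051 in siNC and 0.028, 0.013 and 0.037 in siMettl3. Genes under 1500 bases lay at 0.028, 0.063 and -0.057 in siNC and 0.025, -0.086 and 0.052 in siMettl3, with overlap. The members span 1259 bases (Tcf21) to 6703 bases (Pdgfra). In siMettl3 replicate 2 the short Tcf21 and Thy1 were lowest in their group, as were Dcn, Lum and Bgn of middle length. Islr, also of middle length (2049 bases), lay between the other knockdown libraries there. Of the long members Ddr2 was highest, and Pdgfra and Fmod lay between the other knockdown libraries. After the length trend was removed, an analysis added after seeing the data, 6 members were called lower: Bgn, Islr, Lum, Pdgfra (limma adjusted p = 0.0214), Thy1 (0.0279) and Ddr2 (0.0336), where 9.24% of all tested genes were.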

How the data were processed

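Messenger RNA of 6 libraries, 3 siNC and 3 siMettl3, was measured by paired-end sequencing. Per the file headers, the deposited table gives FPKM computed by the authors, with 0.0001 where the count is 0, and counts as whole numbers without normalization. The submitters' processing notes name Bowtie 0.12.2 and the build mm8 with no role, and the build of the rat coordinates is not given in the sources used here. Where each library held 20 counts or more (14527 genes), 98.7% of count-to-FPKM ratios, scaled by library total, lay within 1% of the gene's median, so the deposited counts may derive from the same estimates as FPKM. Effective length is that ratio.

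Those averaging 1 FPKM or more over the libraries (13105 genes) were tested as siMettl3 minus siNC with limma 3.58.1 (trend, 2-sided) in R 4.3.3 on log2(FPKM + 1), a scale that compresses folds of genes near 1 FPKM, with Benjamini-Hochberg adjustment at 0.05. edgeR 4.0.16 (quasi-likelihood, TMM) and DESeq2 1.42.0 were run as alternatives on the deposited counts of the same genes. Both limma and edgeR were tested on simulated counts with the same spread setting for every gene. That does not show how they perform on these libraries. The members and gene lists were chosen with earlier results of these data known. Named genes were the 10 members, Mettl3 and, per list, up to 4 called genes with the smallest adjusted p, or all where 5 or fewer were called. Genes named at or near 0 or beside these (Prelp, Tsku, Kera, Epyc, Aspn, Cenpp, Lck, Cd2, Cd3g, 4 neuronal genes, Tnnt2, Myh6, Pdgfa, Pdgfb, Tll1 and 4 pericyte genes) were added after their values were seen. Wt1, Pi16, Fap, Cd248 and Dpt were added in the same way.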

Additional observations from a re-analysis of the deposited data

How the results depend on the processing

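Alternatives were other pseudocounts, filters and scalings, other tests, a replicate block and each library left out, and, chosen after seeing the data, a length correction and edgeR with each library left out. The 1432 calls over all genes became 903 without a filter on low values (which tests more genes), 2394 by DESeq2, 6 with the replicate block in limma and 64 in edgeR, and with 1 library left out 206 to 861 by limma and, from 1308, 344 to 1066 by edgeR, which lowers power by construction. Calls were 856 higher and 576 lower by limma, 444 and 864 by edgeR, 359 and 778 after median-ratio scaling, and 469 and 752 after quantile normalization. The 3 members called lower became 1 without a filter (Bgn), 5 after quantile normalization, 5 by edgeR, 8 by DESeq2, 6 after the length correction and 0 with the replicate block in either tool, and with 1 library left out 1 to 2 by limma and, from 5, 1 to 4 by edgeR. The 7 other fibroblast genes became 4 without a filter (where 1 was called higher), 0 with the block in limma, 4 in edgeR, and with 1 library left out 4 to 5 by limma and, from 8, 4 to 6 by edgeR. The 4 chondroitin and dermatan sulfate genes became 2 without a filter, 0 with the block in either tool, and with 1 library left out 0 to 2 by limma and, from 4, 2 to 4 by edgeR. Ogn was the one member to change sign: -1.31 to 0.65 with 1 library left out. Apart from Ogn, the members and the named genes called by limma kept their sign in every alternative run on them. Same-numbered libraries did not deviate together (correlations of 0.0346, -0.255 and -0.119 for numbers 1, 2 and 3), and not every library correlated best with its own number, so the numbers were not taken as pairs. At a mean filter of 5 FPKM, Pdgfra, Tcf21, Islr and Ogn were not tested. Depth bears on the low members: Tcf21 rested on 158 to 413 counts per library.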
